A study of Homo sapiens with 12 samples.

Results

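Ribosome biogenesis and RNA polymerase I genes were followed in 23132/87 gastric adenocarcinoma cells and SW48 colorectal adenocarcinoma cells treated with myricone C. The members were all genes in either deposited table whose symbol begins with UTP, RRP, NOP or NOL and a digit, or with POLR1 and a letter or digit. Of 46 such symbols, 3 were dropped, namely the pseudogenes RRP7BP and POLR1HASP and the antisense transcript NOP14-AS1. The remaining 43 genes were present in both tables, among 12360 genes in either table and 10264 in both. By role they comprised 8 subunits of RNA polymerase I, 19 factors of the small ribosomal subunit and its processome, 4 proteins of small nucleolar ribonucleoproteins (snoRNPs) and 10 factors of the large subunit. Despite their names, NOL3, which encodes the apoptosis repressor ARC, and NOL4L are not known as ribosome assembly factors.

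Each line is an established cell line described as wild type in the labels, and received either 10 µM myricone C, a neolignan per the series title, or 0.1% DMSO as vehicle, for 48 h. There were 3 libraries in each of the 4 groups, which the labels call biological replicates of 1 line, so p-values measure the spread between cultures of the same line. In bulk RNA, fewer cells of a kind and less RNA per cell cannot be told apart. Expression is given as the deposited signal, which resembles FPKM or TPM, on the authors' scale. Every gene in a table was at or above 1 in all 6 libraries of its line, so a gene silent in either condition would be missed, and because the files hold no counts the read depth is unknown.

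RNA polymerase I transcribes the long ribosomal RNA precursor in the nucleolus. The small subunit processome then folds and cleaves the precursor with the U3 snoRNP, box C/D and box H/ACA snoRNPs guide its chemical modification, and separate sets of factors carry the small and large subunits to export. Growing tumour cells depend on this pathway, and MYC is a known activator of many of its genes through E-boxes, the DNA element CACGTG.

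The promoters of the members are shown first because the E-box is a feature that the naming rule did not use. RefSeq promoter windows on GRCh38.p14, from 250 bases before to 50 bases after the gene start, were matched for 37 of the 43 members, and NOL10, NOP58, POLR1E, RRP12, RRP1B and UTP23 had no entry. The letters CACGTG, which read the same on both strands, occurred in 13 of the 37 windows (35.1%), against 7.43% of all 27305 promoter windows and 11.1% of the 8252 windows of genes in both tables. In 10 members a match began within 20 bases of the RefSeq start. RefSeq starts can differ from the GENCODE gene positions given below. The windows printed for POLR1G and UTP4 lie inside the genes as placed by GENCODE (45406209 to 45410766 and 69131291 to 69231130). The first part of the composite site of the stress factors CHOP and ATF4, TGATGNAA on either strand, occurred in 0 of the 37 member windows, against 3.67% of all windows and 1.51% of those of genes in both tables. A match is only a run of letters and says nothing of binding. Of the 9 members that fell in 23132/87 cells 4 held a match (44.4%), and of the other 28 members 9 did (32.1%). Windows from 100 bases before to 25 bases after the start are printed 5′ to 3′ for the 4 genes with a match that fell in 23132/87 cells (UTP20, POLR1G, NOP14 and UTP4; the 5 other fallen genes hold none), for RRP9, which rose in SW48 cells, and for NOP53, which rose in 23132/87 cells and has no match. Capitals mark the E-box.
UTP20, chr12:101280005-101280129, plus strand: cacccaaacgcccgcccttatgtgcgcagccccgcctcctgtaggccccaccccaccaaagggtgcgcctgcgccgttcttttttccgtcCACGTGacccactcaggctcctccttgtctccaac
POLR1G, chr19:45406544-45406668, plus strand: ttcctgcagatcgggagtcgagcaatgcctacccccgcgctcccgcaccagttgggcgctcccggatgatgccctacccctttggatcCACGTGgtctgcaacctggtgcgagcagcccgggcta
NOP14, chr4:2963382-2963506, minus strand: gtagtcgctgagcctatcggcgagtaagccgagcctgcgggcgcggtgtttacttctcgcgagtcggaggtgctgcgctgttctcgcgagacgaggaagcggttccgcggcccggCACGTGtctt
UTP4, chr16:69132549-69132673, plus strand: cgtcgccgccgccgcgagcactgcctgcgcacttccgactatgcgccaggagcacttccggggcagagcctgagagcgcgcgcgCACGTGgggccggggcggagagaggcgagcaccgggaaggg
RRP9, chr3:51941880-51942004, minus strand: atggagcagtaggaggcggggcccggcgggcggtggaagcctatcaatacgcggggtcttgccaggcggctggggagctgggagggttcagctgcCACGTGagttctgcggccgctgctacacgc
NOP53, chr19:47745446-47745570, plus strand: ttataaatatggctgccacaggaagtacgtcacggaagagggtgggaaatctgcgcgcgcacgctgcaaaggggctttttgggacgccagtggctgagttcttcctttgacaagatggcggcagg

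In 23132/87 cells most of these genes changed little, and a few changed a lot. Of the 43 members, 9 fell and 3 rose at adjusted p under 0.05 (limma), which is 27.9% of them, against 46.5% of all 11070 genes in the table (23.3% rose and 23.2% fell). Those that fell were UTP20, RRP7A, RRP36, NOP14, NOP9 and UTP4 of the small subunit, the polymerase subunit POLR1G, NOP16 of the large subunit and the snoRNP protein NOP56. Those that rose were NOP53, RRP12 and POLR1D. The median log2 change of the members was -0.11, against 0.01 for all genes. The split moved with the scaling, to 7 lower and 4 higher after quantile normalization and to 14 lower and 3 higher after centring each library on its median. Without vehicle replicate 2 only 7 members were called.

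SW48 cells showed still fewer changes in the same genes. There 2 members rose, RRP12 and RRP9, and 1 fell, NOP10, together 6.98% of the members against 29.3% of all 11554 genes in that table (10.1% rose and 19.2% fell). The median change of the members was 0.08, against -0.08 for all genes. Quantile normalization gave 3 higher and 0 lower, and centring on the median 2 higher and 0 lower. Only 1 member, RRP12, was called when vehicle replicate 3 or myricone C replicate 2 was left out.

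The difference between the lines was called for 6 members, or 14% of them, against 12.7% of the 10264 genes tested, and for 5 of these the change was higher in SW48. RRP12 was the only gene called in both lines, and 29 members were called in neither. The changes had the same sign in both lines for 26 members and opposite signs for 17. These counts of calls and signs across the lines were not made over all genes, so they only describe the members.

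**Figure D1:**
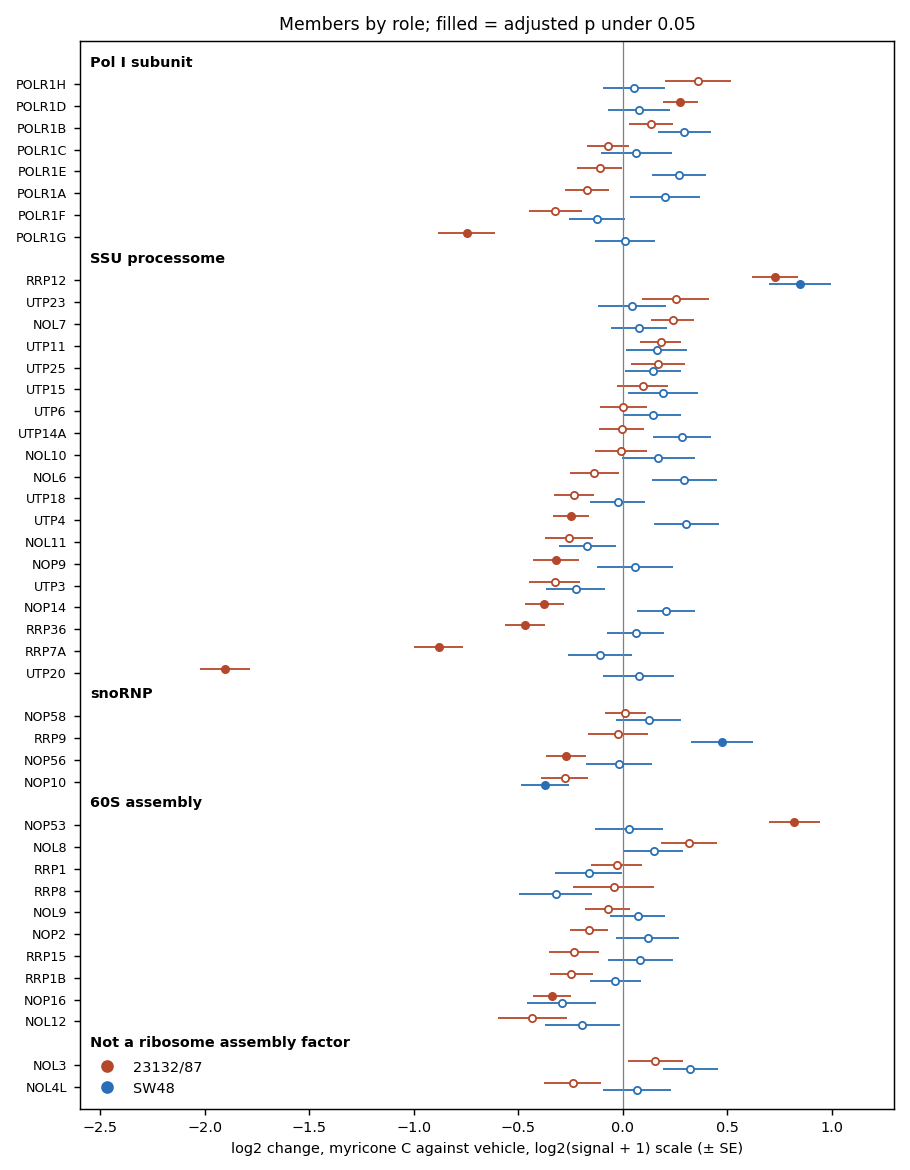
Log2 change between myricone C and vehicle (horizontal axis, log2(signal + 1) scale, bars are limma's SE) for the 43 members, grouped by role, in 23132/87 and SW48 cells (3 libraries per group). Filled points passed adjusted p under 0.05. Most points lie between -0.5 and 0.5, with UTP20 in 23132/87 at -1.91 the farthest from 0.

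Among the polymerase I subunits, only POLR1G and POLR1D were called, both in 23132/87 cells. This makes 25% of the 8 subunits in 23132/87 and 0% in SW48, against 46.5% and 29.3% of all genes. POLR1G, a subunit of the polymerase I enzyme (chromosome 19, 45406209 to 45410766 on GRCh38), had a signal of 3.80, 3.82 and 3.26 in the vehicle libraries of 23132/87 and 1.503, 2.07 and 1.71 with myricone C. All treated libraries lay below all vehicle libraries, and the log2 change was -0.75 ± 0.14 (SE, adjusted p = 0.00163). Because the gene is low, the size depends on the pseudocount, from -0.35 with 5 to -1.01 with 0.1. It overlaps PPP1R13L and ERCC1 on the other strand, and the strand setting of the counting is not given in the sources used here. For SW48 the signal was 2.44, 2.32 and 1.94 with vehicle and 2.20, 2.36 and 2.19 with myricone C, a change of 0.01 ± 0.14 (SE, adjusted p = 0.969), and the groups overlapped.

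POLR1D, a subunit shared with RNA polymerase III, was at 60.7, 64.1 and 65.2 with vehicle and 76.4, 78.5 and 75.7 with myricone C in 23132/87. It rose by 0.28 ± 0.09 (SE, adjusted p = 0.0239), with no overlap of the groups. Removing vehicle replicate 1 (0.25) or 2 (0.28), or the treated replicate 2 (0.26) or 3 (0.29), ended the call, as did fitting all 12 libraries together (adjusted p = 0.084). In SW48 POLR1D was at 0.08 ± 0.15 (SE, adjusted p = 0.727). Its difference between the lines was not called (-0.20 ± 0.18, SE, adjusted p = 0.498). The other shared subunit, POLR1C, stayed uncalled in both lines, with changes of -0.07 in 23132/87 and 0.06 in SW48. The largest subunits were not called either. POLR1A, the largest subunit, was at -0.17 (adjusted p = 0.203) in 23132/87 and 0.20 (adjusted p = 0.391) in SW48, and POLR1B, the second-largest, at 0.13 (adjusted p = 0.322) and 0.29 (adjusted p = 0.105). After quantile normalization POLR1B passed in SW48 (0.38, adjusted p = 0.0416). POLR1F was at -0.32 (adjusted p = 0.0626) in 23132/87, where its treated libraries (7.76 to 9.48) lay below its vehicle libraries (10.2 to 12.6), and it passed under both other scalings (-0.36 each) and without myricone C replicate 1 (-0.39). POLR1H was at 0.36 in 23132/87 (adjusted p = 0.0871) and passed without vehicle replicate 1 (0.55, adjusted p = 0.0071). POLR1E was at -0.11 in 23132/87 and 0.27 in SW48 (adjusted p = 0.432 and 0.139).

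A different picture came from the 5 subunits that RNA polymerases I, II and III have in common, which carry POLR2 names and so lie outside the members. They were chosen after their values were seen, so their falling together is a description and not a test. POLR2E, POLR2F, POLR2H, POLR2K and POLR2L all fell in both lines, with a median log2 change of -0.77 in 23132/87 and -0.61 in SW48. Of all genes, 23.2% fell in 23132/87 and 19.2% in SW48. POLR2L was at 109.5, 100.9 and 91.0 with vehicle and 19.9, 30.6 and 34.0 with myricone C in 23132/87, a log2 change of -1.83 ± 0.17 (SE, adjusted p = 3.73e-05). The SW48 values were 84.0, 53.7 and 72.0 with vehicle and 38.3, 25.5 and 23.7 with myricone C, a change of -1.24 ± 0.20 (SE, adjusted p = 0.00107). In both lines every treated library lay below every vehicle library for all 5 genes. Groups did not overlap, in either direction, for 56.8% of all genes in 23132/87 and 45.3% in SW48. The 4 common subunits other than POLR2L changed by -0.63 to -0.87 in 23132/87 and by -0.46 to -0.74 in SW48. In SW48 POLR2E no longer passed on removing vehicle replicate 1 (-0.37) or 3 (-0.48) or the treated replicate 2 (-0.35), nor with quantile scaling (-0.36). That of POLR2K was lost after quantile normalization (-0.49) and on leaving out any 1 library except vehicle replicate 1 (-0.41 to -0.60). None of the 5 differed between the lines past the threshold (adjusted p from 0.20 to 0.963).

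**Figure D2:**
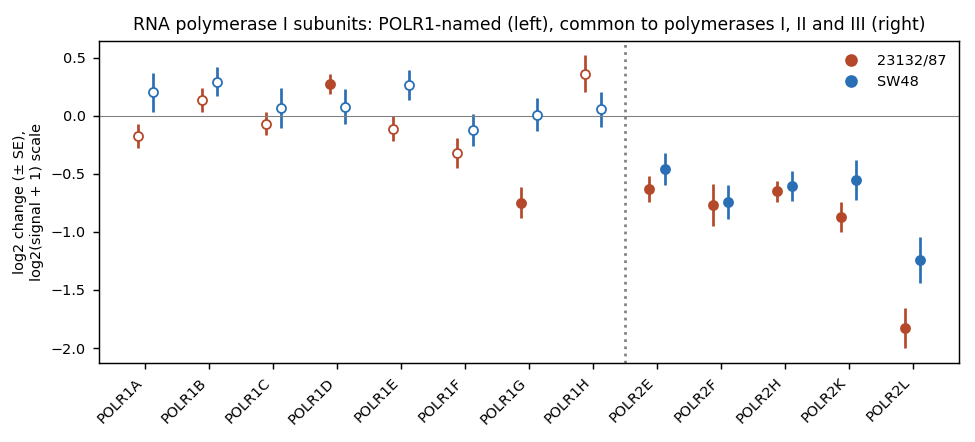
Log2 change between myricone C and vehicle (vertical axis, log2(signal + 1) scale, bars are SE, 3 libraries per group) for the subunits of RNA polymerase I in both lines. Filled points passed adjusted p under 0.05. The 5 common subunits on the right lie between -0.46 and -1.83, whereas the 8 POLR1-named subunits lie between -0.75 and 0.36.

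Within the small subunit group, 6 of 19 genes fell and 1 rose in 23132/87, or 36.8% called against 46.5% of all genes. UTP20, a very large scaffold protein of the processome (chromosome 12, 101280109 to 101386616), changed most. Its signal was 53.7, 41.9 and 51.0 in the vehicle libraries of 23132/87 and 11.2, 12.3 and 13.4 with myricone C, so that the group means, 48.9 ± 6.17 and 12.3 ± 1.09 (SD, n = 3), differed 3.98-fold. The log2 change was -1.91 ± 0.12 (SE, adjusted p = 4.06e-06), and it ranged from -1.64 to -2.01 over the alternatives. In SW48 the same gene was at 10.7, 7.93 and 8.72 with vehicle and 11.6, 9.98 and 7.55 with myricone C, a change of 0.08 ± 0.17 (SE, adjusted p = 0.771). The difference between the lines was 1.98 ± 0.22 (SE, adjusted p = 0.00013). The tables were scaled and filtered separately, so the vehicle levels of the lines were not tested against each other. Side by side, the vehicle mean was 48.9 in 23132/87 and 9.11 in SW48, and the myricone C means were 12.3 and 9.73.

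RRP7A, a component of the UtpC module of the processome (chromosome 22, 42509968 to 42519802), was at 23.5, 25.2 and 21.5 with vehicle and 10.7, 13.2 and 12.9 with myricone C in 23132/87. It fell by 0.88 ± 0.12 on the log2 scale (SE, adjusted p = 0.00027), with the groups well apart. SW48 libraries held 12.7, 8.38 and 10.5 with vehicle and 9.27, 9.50 and 9.93 with myricone C (-0.11 ± 0.15, SE, adjusted p = 0.632). The difference between the lines was 0.77 ± 0.19 (SE, adjusted p = 0.0175). RRP7A shares sequence with the pseudogene RRP7BP, whose signal averaged 11.3 with vehicle and 8.28 with myricone C in 23132/87, so its own level is uncertain. With the signals of both summed, an alternative added after seeing the data, the change was -0.73 in 23132/87 (adjusted p = 0.00113) and the difference between the lines 0.65 (adjusted p = 0.0365). NOL6, another component of UtpC, was at -0.14 in 23132/87 (adjusted p = 0.368) and 0.30 in SW48 (adjusted p = 0.175).

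RRP36 and NOP14 fell in 23132/87 by smaller amounts. RRP36, needed for early cleavages of the precursor, was at 35.03, 37.9 and 39.2 with vehicle and 28.4, 26.5 and 25.2 with myricone C (-0.47 ± 0.10, SE, adjusted p = 0.00326). In SW48 its values, 35.7, 29.5 and 32.5 with vehicle against 28.4, 37.2 and 36.9, overlapped (0.06 ± 0.14, SE). NOP14, a processome scaffold on chromosome 4, was at 39.6, 37.4 and 36.1 with vehicle and 28.4, 28.01 and 30.1 with myricone C in 23132/87 (-0.38 ± 0.09, SE, adjusted p = 0.00803), and again all treated libraries were lower. Its SW48 values were 39.4, 29.2 and 35.7 against 36.8, 45.3 and 38.2 (0.20 ± 0.14, SE, adjusted p = 0.292). NOP14 overlaps its antisense transcript NOP14-AS1, whose row in the SW48 table went from a mean of 1.41 ± 0.306 to 3.88 ± 1.28 (SD, n = 3). The differences between the lines, 0.53 ± 0.17 for RRP36 (adjusted p = 0.049) and 0.58 ± 0.17 for NOP14 (adjusted p = 0.0325), were near the threshold. That of NOP14 was lost without 23132/87 vehicle replicates 1 (0.55) or 2 (0.59), 23132/87 myricone C replicates 1 (0.57) or 2 (0.56), SW48 vehicle replicates 2 (0.46) or 3 (0.60) or SW48 myricone C replicate 2 (0.49). That of RRP36 was lost on leaving out any library but SW48 vehicle replicate 1 or SW48 myricone C replicate 1 (0.46 to 0.57) and without the trend (adjusted p = 0.0605).

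UTP4 and NOP9 passed the threshold in 23132/87 by little. UTP4, a subunit of the UtpA complex that joins the precursor first, was at 33.9, 34.8 and 35.4 with vehicle and 29.2, 28.7 and 29.3 with myricone C (-0.25 ± 0.09, SE, adjusted p = 0.0415). That call was lost on leaving out any 1 of the 6 libraries (-0.23 to -0.26), with quantile scaling (-0.21), without the mean-variance trend (adjusted p = 0.0618) and with all 12 libraries fitted together (adjusted p = 0.131). For UTP4 the SW48 values were 38.8, 29.4 and 41.9 against 38.5, 51.1 and 46.5 (0.30 ± 0.15, SE, adjusted p = 0.16). Its line difference was 0.55 ± 0.18 (SE, adjusted p = 0.061) and not called. That difference passed with quantile scaling (0.62, adjusted p = 0.0283), with median-centred libraries (0.62, adjusted p = 0.0431) and without SW48 vehicle replicate 3 (0.65) or SW48 myricone C replicate 1 (0.66). The other UtpA genes, UTP15 at 0.10 and NOL11 at -0.26 in 23132/87, were not called. NOP9, which acts on the small subunit precursor, was at 8.72, 9.06 and 8.48 with vehicle and 6.92, 6.73 and 6.78 with myricone C in 23132/87 (-0.32 ± 0.11, SE, adjusted p = 0.0364). The NOP9 call was lost on leaving out any library but vehicle replicate 3 (-0.30 to -0.33) and with all 12 libraries fitted together (adjusted p = 0.0995). In SW48 NOP9 was at 0.06 ± 0.18 (SE, adjusted p = 0.83). Its line difference was not called (0.38 ± 0.22, SE, adjusted p = 0.263). UTP4 overlaps SNTB2 on the same strand and CHTF8 on the other, and NOP9 overlaps LTB4R2 on the same strand and CIDEB on the other.

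RRP12, which takes part in export of the precursor subunits, rose in both lines. In 23132/87 its signal was 10.7, 11.9 and 10.6 with vehicle and 20.4, 18.9 and 17.6 with myricone C, a 1.72-fold difference of means (0.73 ± 0.11, SE, adjusted p = 0.000536). In SW48 it was 15.9, 10.8 and 13.9 with vehicle and 22.9, 26.5 and 25.2 with myricone C, a 1.84-fold difference (0.85 ± 0.15, SE, adjusted p = 0.00181). The groups did not overlap in either line, and the call held under each alternative run in each line. The difference between the lines was 0.12 ± 0.18 (SE, adjusted p = 0.697). The remaining 12 genes of the small subunit group (UTP3, UTP6, UTP11, UTP14A, UTP15, UTP18, UTP23, UTP25, NOL6, NOL7, NOL10 and NOL11) were called in neither line. Their changes ran from -0.33 (UTP3) to 0.25 (UTP23) in 23132/87 and from -0.23 (UTP3) to 0.30 (NOL6) in SW48.

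**Figure D3:**
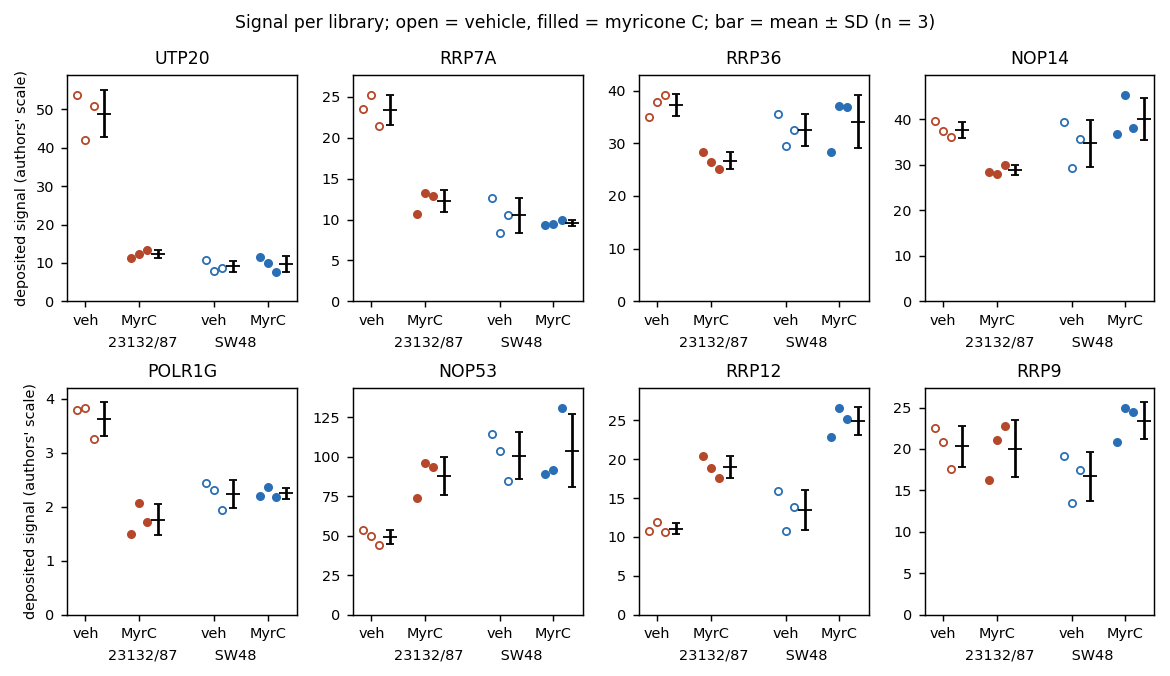
Deposited signal (vertical axis, authors' scale, from 0) in each library for 8 members in 23132/87 (red) and SW48 (blue). Open circles are vehicle and filled circles myricone C, and the bars give the mean ± SD of 3 libraries. UTP20, RRP7A, RRP36, NOP14 and POLR1G are lower with myricone C in 23132/87 and overlap in SW48. NOP53 is higher with myricone C in 23132/87 and overlaps in SW48. RRP12 is higher in both lines and RRP9 is higher in SW48.

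Of the 4 snoRNP proteins, NOP56 was called in 23132/87, and RRP9 and NOP10 in SW48. These are 25% and 50% of the group, against 46.5% and 29.3% of all genes. NOP56, a core protein of the box C/D particles that methylate ribosomal RNA, was at 121.5, 115.8 and 108.0 with vehicle and 88.9, 94.7 and 102.4 with myricone C in 23132/87 (-0.27 ± 0.10, SE, adjusted p = 0.0409). With quantile scaling (-0.11), or on removing vehicle replicate 1 (-0.23) or 2 (-0.27) or the treated replicate 1 (-0.22) or 2 (-0.27), NOP56 no longer passed, nor without the trend (adjusted p = 0.0671) or with all 12 libraries fitted together (adjusted p = 0.124). Its partner NOP58 was at 0.01 in that line (adjusted p = 0.928). Neither was called in SW48, and the NOP56 difference between the lines was not called (0.25 ± 0.20, SE, adjusted p = 0.425). RRP9, which binds the U3 snoRNA, was at 19.2, 13.4 and 17.4 with vehicle and 20.8, 24.9 and 24.5 with myricone C in SW48 (0.47 ± 0.15, SE, adjusted p = 0.033), with no overlap. In 23132/87 it was at 22.5, 20.8 and 17.6 against 16.2, 21.1 and 22.8 (-0.02 ± 0.14, SE, adjusted p = 0.904), and the difference between the lines was not called (0.50 ± 0.21, SE, adjusted p = 0.14). RRP9 no longer passed in SW48 on removing vehicle replicate 2 (0.33) or 3 (0.51) or the treated replicate 2 (0.43) or 3 (0.44).

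NOP10, a small core protein of the box H/ACA particles that make pseudouridine, was at lower mean values with myricone C in both lines and was called in SW48. In SW48 it was at 123.0, 107.1 and 120.6 with vehicle and 91.7, 81.6 and 97.5 with myricone C (-0.37 ± 0.11, SE, adjusted p = 0.0309). In 23132/87 it was at 205.1, 178.4 and 199.3 against 141.4, 160.5 and 179.3 (-0.28 ± 0.11, SE, adjusted p = 0.0643), where 1 treated library lay above the lowest vehicle library. Without myricone C replicate 3 it passed there too (-0.36, adjusted p = 0.0354). The difference between the lines was -0.09 ± 0.16 (SE, adjusted p = 0.737). NOP10 no longer passed in SW48 on removing vehicle replicate 1 (-0.33) or 3 (-0.35) or the treated replicate 2 (-0.30), nor under both other scalings (-0.25 and -0.32) or without the trend (adjusted p = 0.0531).

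In the large subunit group 1 gene rose and 1 fell among 10, both in 23132/87, and none was called in SW48 by limma (0 of 10 also at an unadjusted p under 0.05). Over all genes 46.5% were called in 23132/87 and 29.3% in SW48, where 4803 of 11554 had an unadjusted p under 0.05. NOP53 (chromosome 19, 47745522 to 47757058), which recruits the exosome to the large subunit precursor, was at 53.7, 49.4 and 44.3 with vehicle and 73.9, 96.2 and 93.5 with myricone C in 23132/87. It rose 1.79-fold between means (0.82 ± 0.12, SE, adjusted p = 0.000518), with the groups well apart. SW48 libraries of NOP53 held 114.3, 103.4 and 84.3 with vehicle and 89.2, 91.4 and 130.5 with myricone C (0.03 ± 0.16, SE, adjusted p = 0.905). The difference between the lines was -0.79 ± 0.22 (SE, adjusted p = 0.0298). It was lost without 23132/87 vehicle replicates 2 or 3, 23132/87 myricone C replicates 2 or 3, SW48 vehicle replicates 1 or 2 or SW48 myricone C replicates 1 or 2 (-0.69 to -0.80).

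NOP16, a large subunit assembly factor, was at 76.2, 76.0 and 67.9 with vehicle and 57.2, 56.1 and 60.1 with myricone C in 23132/87 (-0.34 ± 0.09, SE, adjusted p = 0.013). With quantile scaling (-0.21), or on removing vehicle replicate 2 (-0.31) or the treated replicate 2 (-0.32), NOP16 no longer passed, nor with all 12 libraries fitted together (adjusted p = 0.0639). In SW48 it was at 65.2, 42.99 and 63.9 against 40.3, 52.0 and 45.9 (-0.29 ± 0.17, SE, adjusted p = 0.206). Without SW48 vehicle replicate 2, where the gene was lowest among the vehicle libraries, the SW48 change was -0.48 and passed the threshold (adjusted p = 0.0295). The NOP16 difference between the lines was 0.05 ± 0.20 (SE, adjusted p = 0.908) and not called. NOP16 overlaps ARL10 and HIGD2A on the other strand. The ribosomal RNA methyltransferases were not called. NOP2 was at -0.16 in 23132/87 (adjusted p = 0.171) and 0.12 in SW48 (adjusted p = 0.591), and RRP8 at -0.04 (adjusted p = 0.873) and -0.32 (adjusted p = 0.187). The paralogues RRP1 and RRP1B, which lie 93434 bases apart on chromosome 21, were at -0.03 and -0.25 in 23132/87 and -0.16 and -0.04 in SW48. NOL9, NOL12, NOL8 and RRP15 were also uncalled in both lines. NOL12 came nearest in 23132/87 at -0.43 (adjusted p = 0.0526), with 10.6, 17.97 and 13.6 in the treated libraries against 17.7 to 19.7 with vehicle, and it passed without myricone C replicate 2 (-0.61, adjusted p = 0.00939).

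The members not known as assembly factors were uncalled as well. NOL3 was at 0.16 in 23132/87 (adjusted p = 0.362) and 0.32 in SW48 (adjusted p = 0.0882), where its treated libraries (10.1 to 12.1) lay above its vehicle libraries (8.25 to 9.57). NOL4L was at -0.24 and 0.07 (adjusted p = 0.175 and 0.787).

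In SW48, single libraries stood low across the members. SW48 vehicle replicate 2 held the lowest value of its group for 31 of the 43 members, and its median over the members lay 0.17 below the vehicle mean (-0.17), whereas over all genes it lay at 0.01. SW48 myricone C replicate 1 likewise held the lowest value of its group for 31 members. In the names of the deposited columns the SW48 treated replicates 1, 2 and 3 are numbered 2, 3 and 4, so these low libraries both carry the number 2 there. The libraries with column number 3, vehicle replicate 3 and myricone C replicate 2, were the highest of their groups for 21 and 27 members. Whether column numbers mark a shared culture or day is not given in the sources used here. SW48 myricone C replicate 1 also drew 5.28% of its summed signal from small noncoding RNA genes, against at most 0.22% in the other SW48 libraries. Its part in the members' values was not tested. Without it 4 members were called in SW48, with UTP14A (0.40, adjusted p = 0.0489) added to RRP12, RRP9 and NOP10. Without vehicle replicate 2, 3 members were called, namely RRP12, NOP10 and NOP16. In 23132/87 no library was lowest in its group for more than 21 members. The members' share of the summed signal ranged from 0.243% to 0.249% with vehicle and from 0.238% to 0.248% with myricone C in 23132/87. In SW48 it ranged from 0.204% to 0.243% with vehicle and from 0.221% to 0.27% with myricone C.

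**Figure D4:**
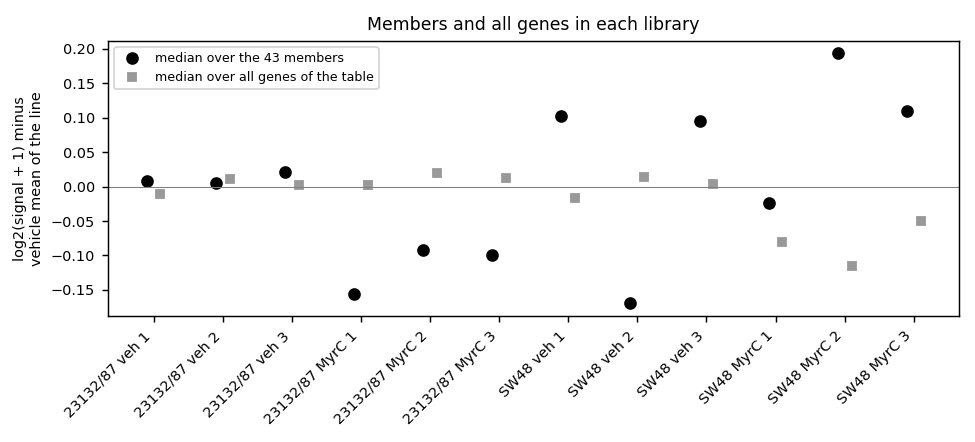
Median over the 43 members (black circles) and over all genes of the table (grey squares) of the log2(signal + 1) value minus the vehicle mean of the line, for each of the 12 libraries. The 3 treated 23132/87 libraries lie between -0.16 and -0.09 for the members, and SW48 vehicle replicate 2 stands at -0.17.

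Groups that do not overlap were also counted. In 23132/87, 22 of 43 members were separated (17 lower and 5 higher with myricone C), or 51.2%, against 56.8% of all genes. In SW48, 8 members were separated (7 higher and 1 lower), or 18.6%, against 45.3% of all genes.

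**Figure D5:**
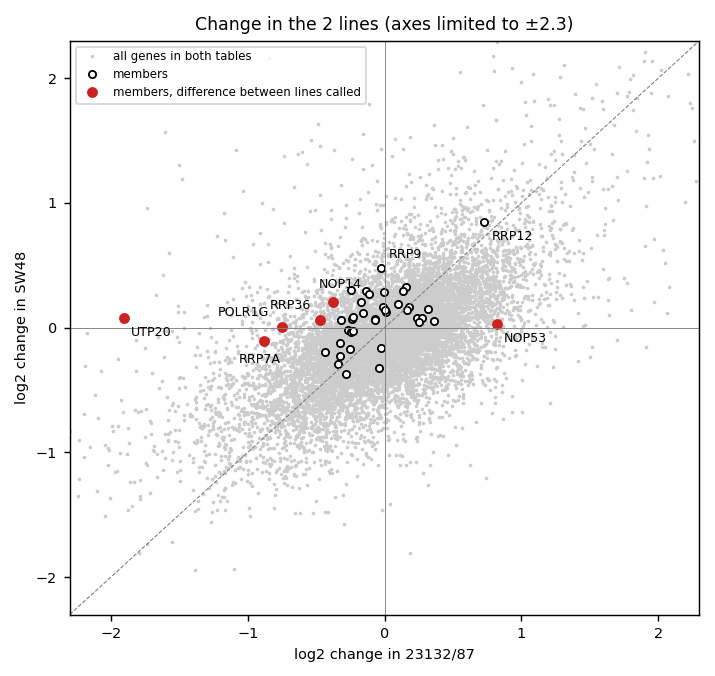
Log2 change in 23132/87 (horizontal axis) against log2 change in SW48 (vertical axis) for all genes in both tables (grey) and the 43 members (circles), on the log2(signal + 1) scale, with axes limited to ±2.3. The 6 members in red differed between the lines at adjusted p under 0.05. UTP20 stands at -1.91 and 0.08, and RRP12 at 0.73 and 0.85 lies near the diagonal of equal change.

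The rest of the pathway was read from 5 lists of other ribosome assembly genes, 134 genes in all, of which 127 were in each table. In 23132/87, 20 of these rose and 31 fell (40.2% called against 46.5% of all genes, median -0.06 against 0.01). In SW48 8 rose and 7 fell (11.8% against 29.3%, median 0.14 against -0.08). Among polymerase I transcription factors 2 of 10 rose and 2 fell in 23132/87, and 1 rose and 1 fell in SW48. For the other factors of the small subunit 5 of 39 rose and 7 fell in 23132/87, and 3 rose and 1 fell in SW48. For those of the large subunit 12 of 48 rose and 10 fell in 23132/87, and 3 rose and 1 fell in SW48. None of 15 snoRNP and nucleolar chaperone genes rose and 5 fell in 23132/87, against 1 and 3 in SW48. Among 15 genes of the exosome and RNA trimming 1 rose and 7 fell in 23132/87, and none rose and 1 fell in SW48. The count in SW48 was 25 after quantile normalization (21 higher and 4 lower) and 27 without myricone C replicate 1 (22 higher and 5 lower), and that in 23132/87 was 33 without vehicle replicate 2.

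Of the genes of these lists named here, TAF1D, RSL24D1, MPHOSPH6 and NHP2 were called in both lines. TAF1D, a subunit of the polymerase I selectivity factor, averaged 20.7 ± 3.38 in vehicle and 55.0 ± 12.3 in treated 23132/87 libraries (SD, n = 3), a log2 change of 1.36 ± 0.16 (SE). In SW48 it was at 38.1 ± 4.23 and 77.2 ± 17.9 (SD, n = 3), a change of 0.98 ± 0.17 (SE). RSL24D1, a placeholder protein of the early large subunit, rose by 1.05 ± 0.11 in 23132/87 and 0.89 ± 0.15 in SW48. MPHOSPH6, an exosome cofactor, fell by 0.87 ± 0.13 on the log2 scale in 23132/87 and 0.72 ± 0.13 in SW48. The exosome subunit EXOSC4 fell by 0.72 ± 0.12 in 23132/87 and was at -0.22 ± 0.18 in SW48, where it was not called. Its difference between the lines was not called either (0.51 ± 0.22, SE, adjusted p = 0.149). NHP2, a box H/ACA core protein like NOP10, fell by 0.59 ± 0.12 on the log2 scale in SW48. In 23132/87 NHP2 was at -0.48 ± 0.16 (adjusted p = 0.0303), which no longer passed with quantile scaling (-0.32) or on removing any 1 vehicle library (-0.45 to -0.49).

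Of the markers used to check the labels, all 7 epithelial genes were listed in both lines, while 0 of 6 leukocyte genes and 1 of 8 mesenchymal genes were. Of 8 gastric markers only TFF1 was listed in 23132/87 and none in SW48, and 4 of 7 colorectal markers were listed in each line. These markers also changed with treatment. Of the 7 epithelial genes 2 rose and 4 fell in 23132/87, and 5 rose and none fell in SW48. TFF1 fell in 23132/87 (-0.85), and of the 4 colorectal markers 1 fell in 23132/87 and 2 fell in SW48. Their part in the members' values was not tested. Over all genes, risen genes made up 34.6% of the calls in SW48 and 46.2% after quantile normalization, and 41.9% and 53.2% of those for the difference between lines.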

How the data were processed

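Libraries were stranded mRNA libraries, per the labels' protocols. Per the submitters' processing notes, FastQC and STAR were used on GRCh38. How reads were counted and scaled, with which gene models and strand setting, is not given in the sources used here. For each line the authors deposited a single table of expression signal. The signal was taken as log2(signal + 1). A filter on the mean (at least 1) removed no gene. limma (version 3.58.1, R 4.3.3) was run with its trend option, without covariates, separately for the 6 libraries of either line. Benjamini-Hochberg adjustment covered the whole table, and calls needed an adjusted p under 0.05. The difference between lines is the line-by-treatment term over the genes in both tables, with positive values where the change was higher in SW48. Fold changes are on the log2(signal + 1) scale, on which low genes show smaller changes than their ratio, errors of changes are limma's moderated SE, and every adjusted p is from these fits. The scripts were tested on simulated data. The summed RRP7A and RRP7BP signal, a block by column number and the common polymerase subunits were chosen after the values were seen.

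The members and lists were chosen with earlier results of these data known. Roles come from textbook knowledge. Every member could be named, and of the other lists the 2 largest rises and falls that were called and averaged 10 or more in each line (1 each for polymerase II and III subunits). Gene positions are from GENCODE release 29, matched by Ensembl identifier, and promoter windows are from RefSeq. Alternatives were quantile normalization, median-centred libraries, no trend, pseudocounts of 0.1 and 5, no filter, a filter of at least 10 in at least 3 libraries, all 12 libraries in 1 fit, the replicate number as a block, and leaving out each library.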

Additional observations from a re-analysis of the deposited data

Results flagged for a closer look

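For 6 members the response differed between the lines by the line-by-treatment term (SW48 change minus 23132/87 change, limma, adjusted over 10264 genes). That is 14% of the members, near the 12.7% of all genes tested. UTP20 had a difference of 1.98, RRP7A of 0.77, POLR1G of 0.76, NOP14 of 0.58 and RRP36 of 0.53, each from a fall in 23132/87 and no call in SW48. NOP53 had a difference of -0.79, from a rise in 23132/87 and no call in SW48. The differences of UTP20, RRP7A and POLR1G kept the call under every alternative in which they were tested, and adjusted p reached 0.0492 for RRP7A and 0.0495 for POLR1G. Those of NOP14, NOP53 and RRP36 lost it when single libraries were left out and with the replicate number as a block, and that of RRP36 also without the trend.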

How the results depend on the processing

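The number of members called was 12 in 23132/87, 3 in SW48 and 6 for the difference between lines. These are 27.9%, 6.98% and 14% of the members, against 46.5%, 29.3% and 12.7% of all genes. Leaving out 1 library at a time gave 7 to 13 in 23132/87, 1 to 4 in SW48 and 3 to 6 for the difference. For the difference, 3 members were called under the filter of 10 or more in 3 libraries, a level at which UTP20, RRP7A and POLR1G were not tested, and 3 with the replicate block. Every other alternative left these counts within 1.5 times, and the medians over members moved by less than 1 SD of the treated libraries' medians. No called change of a named gene changed sign. Among single named genes 93 combinations of gene and setting lost a call and 27 gained one, of 2889 run. With the replicate block the counts were 9 in 23132/87 (POLR1D, NOP56, NOP9 and UTP4 no longer called, NOL12 added) and 2 in SW48 (without RRP9), the differences of NOP14, NOP53 and RRP36 were not called (adjusted p = 0.0997, 0.0777 and 0.128), and all genes called for the difference went from 1306 to 770, and to 812 under that filter, which tests fewer genes. Same-numbered vehicle and treated libraries did not deviate together (correlations of -0.24, 0.11 and -0.27 over genes in 23132/87 and -0.07, -0.18 and -0.14 in SW48), so the numbers were not taken as pairs. These SW48 numbers are those of the sample titles. By the numbers in the column names only 2 SW48 pairs exist, with correlations of 0.15 (number 2) and 0.27 (number 3), too few to settle a pairing. A replicate block by column number, added after seeing the data, gave 2 members in SW48 (RRP12 and RRP9), 5 for the difference (without RRP36) and 5 other assembly genes for the difference. It also ended the SW48 calls of NOP10, NHP2 and POLR2E (-0.39, -0.56 and -0.40). All genes called in SW48 were 3383, and 2199 without SW48 myricone C replicate 2, and those for the difference were 830 without SW48 vehicle replicate 2. Of other assembly genes, 8 were called for the difference and 2 with the replicate block, with 3 to 14 on leaving out single libraries. In SW48 they numbered 15, 24 with all 12 libraries in 1 fit, and 9 without myricone C replicate 2. With 3 libraries per group and no read counts, small differences can be missed.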

Other observations

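The subunits of the other polymerases were not uniform. Of 11 subunits of RNA polymerase III without the members, 3 rose and 1 fell in 23132/87 and 2 rose and 1 fell in SW48. Called were thus 36.4% and 27.3%, against 46.5% and 29.3% of all genes. POLR3C rose in both lines, from 20.7 ± 2.16 to 32.9 ± 2.34 in 23132/87 and from 9.92 ± 1.21 to 17.4 ± 2.44 in SW48 (SD, n = 3). POLR3K was at 23.3, 19.8 and 17.1 with vehicle and 5.46, 10.8 and 11.2 with myricone C in 23132/87, a log2 change of -1.10 ± 0.23 (SE, adjusted p = 0.00326 by limma), and at -0.25 ± 0.14 in SW48 (adjusted p = 0.216). The POLR3K difference between lines was not called (0.85 ± 0.29, SE, adjusted p = 0.0646). It passed without 23132/87 myricone C replicate 3 (1.01, adjusted p = 0.0408). POLR3GL, an alternative form of a polymerase III subunit, was at -0.83 ± 0.15 in SW48 (adjusted p = 0.00179) and 0.07 ± 0.13 in 23132/87, and its difference between lines was -0.90 ± 0.19 (SE, adjusted p = 0.00824). Of 13 polymerase II subunits, the 5 common ones included, 6 fell in each line and none rose by limma. That is 46.2% called in each line, against 46.5% of all genes in 23132/87 and 29.3% in SW48.

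Among the rows left out of the members, the antisense transcript NOP14-AS1 was at 1.08, 1.69 and 1.46 with vehicle and 3.00, 5.35 and 3.30 with myricone C in SW48 (1.00 ± 0.20, SE, adjusted p = 0.00342). POLR1HASP, a pseudogene antisense to POLR1H, was at 1.27, 1.74 and 1.78 with vehicle and 2.42, 2.23 and 2.52 with myricone C in 23132/87 (0.39 ± 0.14, SE, adjusted p = 0.0392). Its mean in SW48 was 1.64 with vehicle and 2.64 with myricone C, without overlap of the groups. That change was not called (0.45 ± 0.16, SE, adjusted p = 0.0563). Reads of such genes and of their partners cannot be told apart if counting ignored strand.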
